A study of Homo sapiens with 12 samples.

Results

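The hepatic miRNAs hsa-miR-192-5p, hsa-miR-194-5p and hsa-miR-215-5p were followed by SLAMseq in Huh7 cells, a human hepatocellular carcinoma line. They are 3 of the 2652 mature miRNAs in the count tables and were taken by name, with earlier results of these data known. After 4 h of 4SU labelling, hsa-miR-192-5p and hsa-miR-194-5p carried T>C conversions well above the unlabelled cells, and the T>C conversion rate of both was lower with PlaB, while their read counts did not pass the test for a change. hsa-miR-215-5p had too few reads for its rate to be tested.

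All cells were Huh7, and all received DMSO or PlaB in 4 independent experiments. Each had 1 sample per condition, called a library here, 12 in all. Control cells had DMSO and no 4SU, DMSO cells had DMSO and 500 µM 4SU for 4 h, and PlaB cells had Pladienolide B (PlaB), an inhibitor of the splicing factor SF3B1, with the same 4SU. The sample labels give the PlaB dose as 500 µM, whereas the methods give a lower one. 4SU is a uridine analogue that enters RNA made during the labelling and, once alkylated, is read as C in place of T, so the T>C conversion rate, the share of sequenced T positions read as C, reports on newly made miRNA and the read count on the whole pool. Total reads on miRNAs ranged from 1667668 to 2393680 in Control, from 1968612 to 3880241 in DMSO and from 1522210 to 1979696 in PlaB. DMSO replicates 1 and 2 combine reads of 3 sequencing runs, those of the original library, a re-amplified one and a newly prepared one. The cells are a single cancer line, and its hepatocyte marker miR-122-5p lay between 55353 and 105331 CPM (reads scaled to a common library total) in the 12 libraries, while the summed blood cell markers stayed at or under 6.90 CPM and the muscle markers at or under 10.2 CPM. Markers of neurons summed to between 1.97 and 54.9 CPM, the endocrine miR-375-3p lay between 50.8 and 98.9, stromal markers between 89.4 and 167, epithelial markers between 175 and 247 and the endothelial miR-126-3p between 385 and 632.

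miR-192 and miR-194 are made together from a liver, gut and kidney transcript whose promoter responds to the hepatocyte nuclear factors, and miR-215 from a related cluster that carries a second copy of miR-194. The family of miR-192 and miR-215 is known for its induction by p53 and for restraining the cell cycle, and miR-194 for marking epithelial cells of the gut and liver. Each hairpin yields a 5p and a 3p arm, of which the 5p arm is the one mostly kept in the silencing complex.

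The mature sequences are shown because they decide which reads can be told apart, with the seed (bases 2 to 8) in capitals. They are RefSeq sequences on GRCh38.p14, and a match was found for all 3 miRNAs.
hsa-miR-192-5p: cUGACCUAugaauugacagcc
hsa-miR-215-5p: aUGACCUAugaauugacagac
hsa-miR-194-5p: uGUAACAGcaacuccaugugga
hsa-miR-194-3p: cCAGUGGGgcugcuguuaucug
hsa-miR-192-5p and hsa-miR-215-5p had 19 of their 21 bases in common, including the seed, which no other mature miRNA of the table shared. Counted from the 5′ end, the substitutions from hsa-miR-192-5p to hsa-miR-215-5p were C1A and C20A, so neither lies at a T that 4SU could convert. Each of the 3 had 5 U residues that can report 4SU, and hsa-miR-194-3p, the other arm of one miR-194 hairpin, had 7.

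The hairpins lie in 2 clusters. MIR192 (chr11:64891137-64891246, minus strand) and MIR194-2 (chr11:64891355-64891439, minus strand) are 108 bases apart within the long non-coding RNA gene MIR194-2HG on the same strand. In GENCODE version 44, MIR192 lay in an exon of 1 and an intron of 2 overlapping transcripts, and MIR194-2 in an exon of 1, partly in an exon of 1 and in an intron of 2. MIR215 (chr1:220117853-220117962, minus strand) and MIR194-1 (chr1:220118157-220118241, minus strand) also neighbour each other and lie in introns of the protein-coding gene IARS2, on the strand opposite to it. Mature hsa-miR-194-5p is identical at both hairpins (chr1:220118206-220118227 and chr11:64891404-64891425), so the mature sequence alone cannot assign a read to either cluster. hsa-miR-192-5p (chr11:64891203-64891223), hsa-miR-215-5p (chr1:220117916-220117936) and hsa-miR-194-3p (chr11:64891368-64891389) have 1 locus each. Since the 2 seed-sharing miRNAs differ at only 2 bases near their ends, the small count of hsa-miR-215-5p is uncertain wherever reads of the far more abundant hsa-miR-192-5p could have been placed on it.

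The read counts address how much of each miRNA the cells held, and hsa-miR-194-5p was the most abundant of the 3 and hsa-miR-215-5p the least. hsa-miR-192-5p had 19596, 18018, 15277 and 18316 CPM in Control replicates 1 to 4. It had 19806, 18557, 14346 and 19330 CPM in DMSO. It had 21408, 17433, 16482 and 19334 CPM in PlaB. The 3 conditions overlapped, with the lowest value in DMSO replicate 3 and the highest in PlaB replicate 1, and hsa-miR-192-5p ranked between place 10 and place 14 of all miRNAs in each library. In edgeR's quasi-likelihood test the change on the log2 scale was 0.03 (SE 0.125, adjusted p = 0.955) for DMSO against Control and 0.04 (SE 0.125, adjusted p = 0.992) for PlaB against DMSO. These comparisons share the DMSO libraries. In all 537 miRNAs tested for reads, 5.96% were called in either direction for DMSO against Control, 0.372% for PlaB against DMSO and 6.7% for PlaB against Control, and none of the 3 members was called in any of them by edgeR or DESeq2, with 1 edgeR p under 0.05 before adjustment, that of hsa-miR-215-5p for DMSO against Control. With the experiment as a block, 60 in place of 32 miRNAs were called for DMSO against Control and 6 in place of 2 for PlaB against DMSO. A read count in CPM is a share of the library, so a change in cell number, or one common to all miRNAs, would not show in it.

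hsa-miR-194-5p had 30048, 23523, 21871 and 23711 CPM in Control replicates 1 to 4. In DMSO it had 23181, 23720, 32713 and 26562 CPM. In PlaB it had 31576, 30291, 26130 and 27888 CPM. The conditions overlapped, although the PlaB mean of 28971 ± 2434 CPM (SD, n = 4) lay above those of DMSO (26544 ± 4372, n = 4) and Control (24788 ± 3603, n = 4). The edgeR log2 fold change was 0.12 (SE 0.135, adjusted p = 0.744) for DMSO against Control, 0.11 (SE 0.135, adjusted p = 0.970) for PlaB against DMSO and 0.23 (SE 0.135, adjusted p = 0.465) for PlaB against Control.

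hsa-miR-215-5p, which shares the seed of hsa-miR-192-5p, was much rarer. It had 58.2, 80.6, 83.9 and 61.6 CPM in Control replicates 1 to 4. It had 124, 119, 114 and 63.5 CPM in DMSO. It had 93.9, 77.8, 82.2 and 59.7 CPM in PlaB. DMSO replicates 1 to 3 lay above every Control and PlaB library, and DMSO replicate 4 lay among them. The edgeR log2 fold change was 0.58 (SE 0.219, adjusted p = 0.174) for DMSO against Control, which was called only with the experiment as a block (log2 fold change 0.55, adjusted p = 0.0470), and −0.43 (SE 0.219, adjusted p = 0.940) for PlaB against DMSO. hsa-miR-192-5p had between 126 and 337 reads for each read of hsa-miR-215-5p.

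The ratio of 2 miRNAs within a library does not depend on the scaling to the library total. hsa-miR-194-5p had 1.39 ± 0.113 reads for each read of hsa-miR-192-5p in Control, 1.53 ± 0.510 in DMSO and 1.56 ± 0.133 in PlaB (mean ± SD, n = 4 each). DMSO replicate 3 stood apart at 2.28, since it held the most hsa-miR-194-5p and the least hsa-miR-192-5p. The log2 ratio of the pair changed by −0.08 between DMSO and PlaB (exact two-sided permutation p = 0.771, Benjamini-Hochberg adjusted over 15 pairs and comparisons 0.888). For the seed-sharing pair, hsa-miR-192-5p over hsa-miR-215-5p, the change was 0.45 (exact two-sided permutation p = 0.229, adjusted 0.429). None of the 15 reached an adjusted p under 0.05. With 4 against 4 libraries the exact permutation p cannot fall under 0.0286, and comparisons at that floor had an adjusted p of 0.107. A single pair with complete separation could therefore not pass, and the lack of calls decides little.

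The libraries differed in how many hsa-miR-194-5p reads were counted as multi-mapping. The share was 6.60% in Control replicate 2, 7.13% in Control replicate 3, 6.86% in DMSO replicate 1 and 7.10% in DMSO replicate 2. In the other 8 libraries, among them all 4 of PlaB, it lay between 48.6% and 55.5%. Many reads were thus not counted as multi-mapping, although the mature sequence is identical at both hairpins. How that count was defined is not given, and the reason was not tested. hsa-miR-192-5p had a share of at most 0.255% in any library, and hsa-miR-215-5p between 35.1% and 64.8%, with no such split. Taking the 158 miRNAs that exceeded 100 CPM throughout, 6 had a gap of over 20 percentage points between these libraries, namely miR-103a-3p, miR-181b-5p, hsa-miR-194-5p, miR-24-3p, miR-365b-3p and miR-885-5p, a set that was noticed after the values were seen.

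hsa-miR-194-5p also differed in level between these libraries, with a mean of 23074 CPM in the 4 with few multi-mapping reads and 28615 CPM in the other 8. Within the latter it had 26880 ± 4481 CPM in Control (n = 2), 29638 ± 4349 in DMSO (n = 2) and 28971 ± 2434 in PlaB (n = 4). Its edgeR log2 fold change for PlaB against DMSO without the 4 libraries was −0.01 (adjusted p = 0.993). The part of the mapping in the hsa-miR-194-5p read counts was not tested further, and all PlaB libraries belong to 1 kind.

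The T>C conversion rate reports on the part of each miRNA made during the labelling. The study states that U content influences labelling and that its method cannot directly compare synthesis between different miRNAs. Where rates of different miRNAs are set side by side below, they show the label carried and not the speed of synthesis. hsa-miR-192-5p had rates of 0.0190%, 0.0149%, 0.0188% and 0.0188% in Control replicates 1 to 4. In DMSO they were 0.121%, 0.153%, 0.121% and 0.141%. In PlaB they were 0.0203%, 0.0540%, 0.0397% and 0.0439%. The 3 conditions did not overlap, but PlaB replicate 1 lay just above the highest Control library, and its exact 95% interval (0.0140% to 0.0285%) ended below those of the other 3 PlaB libraries. The mean rate was 0.0179 ± 0.00201% for Control, 0.134 ± 0.0158% for DMSO and 0.0395 ± 0.0141% for PlaB (SD, n = 4 each), resting on 130, 1369 and 259 conversions. Such intervals include the error of counting and no other, because reads were not traced to single molecules.

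The rate of hsa-miR-192-5p rose with 4SU by 2.90 on the log2 scale (SE 0.297, edgeR adjusted p = 2.30e-14) and was lower in PlaB than in DMSO, by a log2 fold change that came to −1.76 (SE 0.279, adjusted p = 5.00e-07). PlaB stayed above Control, at a log2 fold change estimated as 1.15 (SE 0.294, adjusted p = 0.000723). Of the 238 miRNAs with enough conversions for the test, 81.1% were called higher in DMSO than in Control, 35.7% lower in PlaB than in DMSO and 52.9% higher in PlaB than in Control. As counts these were 193, 85 and 126 miRNAs, and with the experiment as a block 162, 60 and 99. With the test kept to the 88 whose conversions passed filterByExpr, edgeR's filter on low counts, 52 were called lower in PlaB than in DMSO. Without PlaB replicate 1 the log2 fold change of hsa-miR-192-5p against DMSO was −1.54.

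hsa-miR-194-5p carried more label than hsa-miR-192-5p. Its rates were 0.0212%, 0.0217%, 0.0304% and 0.0166% in Control replicates 1 to 4. In DMSO they were 0.208%, 0.242%, 0.176% and 0.168%. In PlaB they were 0.0747%, 0.0743%, 0.0641% and 0.0504%. The 3 conditions did not overlap, and DMSO replicates 1 and 2 had the highest rates. They are the pair with few multi-mapping reads and with combined library preparations and sequencing runs. Control had a mean of 0.0225 ± 0.00573%, DMSO of 0.199 ± 0.0337% and PlaB of 0.0659 ± 0.0114% (SD, n = 4 each), from 221, 2888 and 668 conversions.

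The rate of hsa-miR-194-5p rose with 4SU by 3.15 on the log2 scale (SE 0.253, edgeR adjusted p = 4.80e-19). For PlaB against DMSO the log2 fold change was −1.59 (SE 0.235, adjusted p = 9.55e-08), and for PlaB against Control it was 1.56 (SE 0.245, adjusted p = 1.00e-07). Without the 4 libraries with few multi-mapping reads, PlaB against DMSO gave −1.38 (edgeR adjusted p = 6.23e-07), so the call did not rest on them. Among the 238 miRNAs tested, 82 had a lower log2 fold change than hsa-miR-192-5p for PlaB against DMSO and 91 a lower one than hsa-miR-194-5p, and the median of all was −1.23.

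**Figure D1:**
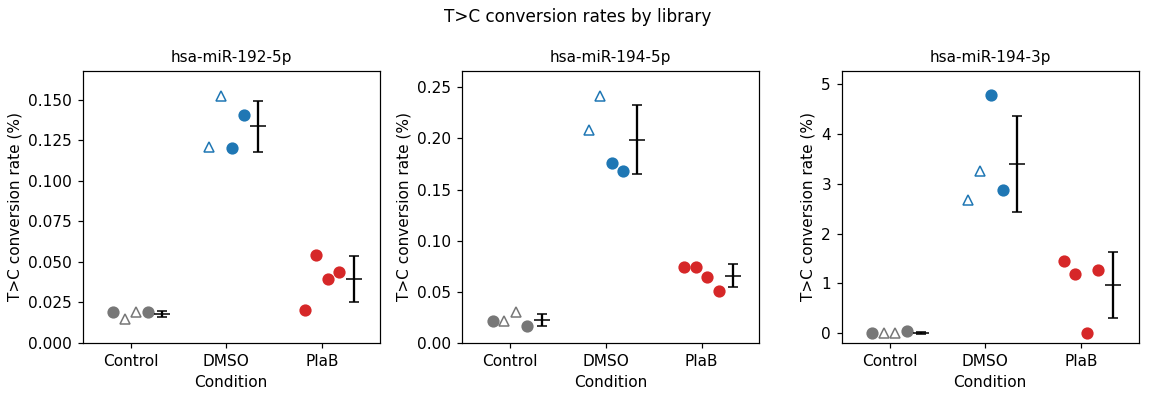
T>C conversion rate in percent of covered T positions (vertical axes, a different range in each panel) of hsa-miR-192-5p, hsa-miR-194-5p and hsa-miR-194-3p in each library; points are libraries, replicates 1 to 4 from left to right, open triangles are libraries with few multi-mapping reads of hsa-miR-194-5p, and bars are mean ± SD (n = 4). For both 5p miRNAs every PlaB library lies between the Control and DMSO libraries, whereas PlaB replicate 3 of hsa-miR-194-3p is at 0.

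Expressed as the study's PlaB/DMSO ratio, in which the mean Control rate is subtracted from both, hsa-miR-192-5p kept 18.7% and hsa-miR-194-5p 24.6% of the DMSO rate. By replicate number, hsa-miR-192-5p had ratios of 0.0127, 0.284, 0.205 and 0.206. The ratios of hsa-miR-194-5p were 0.286, 0.238, 0.231 and 0.223. The first replicate of hsa-miR-192-5p, with the low PlaB library named above, stood far below its other 3, and the ratios of hsa-miR-194-5p were closely grouped. miR-122-5p, the liver-specific miRNA that is also made from a long non-coding RNA, kept 13.5%, with replicates between 0.0965 and 0.162.

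Whether 2 miRNAs responded unequally was tested on the log2 ratio of their rates within a library, with 0.5 conversions added to each count. hsa-miR-192-5p over hsa-miR-194-5p changed by −0.24 from DMSO to PlaB (exact two-sided permutation p = 0.771, adjusted over 4 pairs 0.857). Over miR-122-5p, the change was 0.18 for hsa-miR-192-5p (exact permutation p = 0.571, adjusted 0.857) and 0.42 for hsa-miR-194-5p (exact permutation p = 0.114, adjusted 0.457). None passed the threshold, which a single pair could not do after adjustment over 4 pairs. This does not show that the miRNAs responded alike. By replicate number, the log2 ratio of hsa-miR-194-5p over miR-122-5p was higher in PlaB than in DMSO in 4 of 4 experiments, by 0.43, 0.23, 0.78 and 0.25 (exact sign flips p = 0.125, the smallest that 4 pairs can give, adjusted over 4 pairs 0.5). The 4 PlaB/DMSO ratios of hsa-miR-194-5p, which come from the same counts and add no separate evidence, lay above all 4 of miR-122-5p. hsa-miR-192-5p over miR-122-5p was higher in PlaB in 3 of 4 experiments, and over hsa-miR-194-5p in 2 of 4. Within DMSO, the hsa-miR-194-5p rate was 1.49 ± 0.223 times that of hsa-miR-192-5p (SD, n = 4) and higher in all 4 libraries, between 1.19 and 1.72 times.

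**Figure D2:**
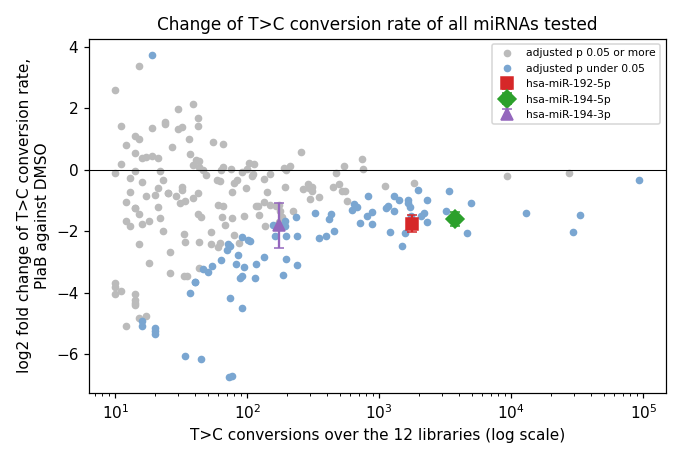
log2 fold change of the T>C conversion rate for PlaB against DMSO (vertical axis) against the number of T>C conversions over the 12 libraries (horizontal axis, log scale) for the 238 miRNAs tested; blue points passed an adjusted p of 0.05, grey points did not, and error bars on the 3 named miRNAs are 1 SE. hsa-miR-192-5p at −1.76 and hsa-miR-194-5p at −1.59 lie among the more deeply covered miRNAs and below the median of −1.23.

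hsa-miR-215-5p gave 1 conversion in 2943 covered T positions in Control, 1 in 6147 in DMSO and 0 in 2709 in PlaB, which allows a rate of up to 0.111% there. It therefore fell under the minimum of 10 conversions and has no test. In DMSO its pooled rate was 0.0163% (exact 95% interval 0.000412% to 0.0906%), and the upper bound lay below the rate of hsa-miR-192-5p in every DMSO library. At the pooled DMSO rate of hsa-miR-192-5p, 8.24 conversions would have been counted on it in place of 1. That interval holds no spread between libraries. An effect of PlaB on hsa-miR-215-5p was not detectable at this depth. Between 35.1% and 64.8% of its reads were multi-mapping, and the part of this in its conversion counts was not tested.

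The other arms of the hairpins were rarer by far. hsa-miR-194-3p, which comes from the chromosome 11 hairpin, had 187, 114, 148 and 123 CPM in Control replicates 1 to 4. It had 71.9, 60.4, 51.7 and 48.3 CPM in DMSO. It had 78.2, 30.8, 59.0 and 29.3 CPM in PlaB. Every Control library lay above every library with 4SU, while DMSO and PlaB overlapped. Its reads fell with 4SU, with an edgeR log2 fold change of −1.28 for DMSO against Control (SE 0.270, adjusted p = 0.00995), −1.54 for PlaB against Control (SE 0.276, adjusted p = 0.00175) and −0.26 for PlaB against DMSO (SE 0.273, adjusted p = 0.962). Without DMSO replicate 3, the first of these had an adjusted p of 0.0501 in edgeR.

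hsa-miR-192-3p had 34.8, 21.7, 26.5 and 26.8 CPM in Control replicates 1 to 4. It had 22.2, 7.33, 2.96 and 12.7 CPM in DMSO. It had 5.91, 11.6, 10.7 and 5.76 CPM in PlaB. The PlaB libraries lay below all Control libraries, and DMSO replicate 1 overlapped with Control. The edgeR log2 fold change was −1.26 (SE 0.447, adjusted p = 0.137) for DMSO against Control and −1.66 (SE 0.469, adjusted p = 0.0431) for PlaB against Control, and the latter call was lost in 13 of 20 alternatives. These were the experiment as a block (edgeR adjusted p = 0.0565), both alternatives on multi-mapping, and any 1 Control library, any 1 PlaB library, DMSO replicate 2 or DMSO replicate 4 left out. hsa-miR-215-3p had at most 5 reads in any library and none in 4 of the 12.

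Set against its own 5p arm, hsa-miR-194-3p had 1 read for 177 ± 27.3 reads of hsa-miR-194-5p in Control, for 474 ± 142 in DMSO and for 695 ± 315 in PlaB (mean ± SD of the ratio, n = 4 each). The log2 ratio rose by 1.39 from Control to DMSO and by 1.87 from Control to PlaB, in both cases with no overlap of libraries (exact two-sided permutation p = 0.0286, the smallest that 4 against 4 can give, adjusted 0.107). hsa-miR-192-5p had 663 ± 123 reads per read of hsa-miR-192-3p in Control and 2451 ± 1738 in DMSO, again without overlap and with the same exact permutation p and adjusted value. The 5p arm of hsa-miR-194 sums 2 hairpins and its 3p arm 1, so the ratio is not that of a single hairpin.

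hsa-miR-194-3p carried the most label of the cluster. Its DMSO rates were 2.68%, 3.25%, 4.79% and 2.87% in replicates 1 to 4. Its PlaB rates were 1.44%, 1.18%, 0% and 1.28%, where the 0 of 658 covered positions in replicate 3 allows a rate of up to 0.456%. In Control, 1 conversion was counted in 7995 covered positions. Every DMSO library lay above every PlaB library, and in DMSO the 3p rate was 17.9 ± 6.74 times that of hsa-miR-194-5p in the same library (SD, n = 4) and higher in all 4, with 0.5 conversions added to each count. The pooled DMSO rate was 256 times the Control rate with an exact 95% counting interval of 45.2 to 10175, a width set by the single Control conversion.

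Of the hsa-miR-194-3p reads in DMSO, 17.7 ± 5.36% carried a conversion (SD, n = 4), with 1.35 conversions per converted read, against 0.972 ± 0.171% and 1.02 for hsa-miR-194-5p. For PlaB against DMSO, the change in the rate of hsa-miR-194-3p was −1.80 on the log2 scale (SE 0.733, edgeR adjusted p = 0.0457). This call was lost in 13 of 21 alternatives, with the experiment as a block among them (log2 fold change −1.97, edgeR adjusted p = 0.0836) and with any 1 DMSO library or PlaB replicate 2, 3 or 4 left out. It rests on 151 conversions in DMSO and 22 in PlaB. The 5p over 3p log2 ratio of rates changed by 0.72 between DMSO and PlaB (exact two-sided permutation p = 0.857, adjusted 0.857), where the PlaB library with no conversion stood apart. No conversion was counted on hsa-miR-192-3p, in 1089, 705 and 299 covered positions of Control, DMSO and PlaB, which allows rates of up to 0.275%, 0.426% and 1.00%.

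The patterns of the 2 abundant members were set beside those of the same 158 miRNAs, as a description over the 12 libraries, which share depth and scaling. The read counts most like those of hsa-miR-192-5p by Pearson's r of log2 CPM were miR-185-5p (0.795), miR-455-5p (0.747) and miR-532-5p (0.737). Those most like hsa-miR-194-5p were miR-24-3p (0.733), miR-151a-5p (0.702) and miR-103a-3p (0.588), of which miR-24-3p and miR-103a-3p are among the 6 with the split in multi-mapping reads. Between the 2 members themselves r was 0.04.

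By T>C conversion rate, the miRNAs nearest to hsa-miR-192-5p were miR-885-5p, miR-30d-5p and miR-34a-5p, with mean absolute differences of 0.36, 0.37 and 0.41 on the log2 scale. These log2 rates were taken with 0.5 conversions added to each count. miR-34a-5p is a textbook p53 target, but it had no conversion in Control. Its log2 rates in the Control libraries were therefore set by the added 0.5 and its coverage. Its place among the nearest rests in part on that constant and does not show a likeness in Control. Nearest to hsa-miR-194-5p were miR-92a-3p (0.22), miR-182-5p (0.38) and miR-93-5p (0.41), and the 2 members were 0.58 apart. In DMSO, 93 of the 158 miRNAs had a higher rate than hsa-miR-192-5p and 71 a higher rate than hsa-miR-194-5p, with a median of 0.183%.

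Of 10 other miRNAs linked to p53, 6 could be tested for reads, and none was called in any comparison by edgeR or DESeq2 (1 edgeR p under 0.05 before adjustment, for DMSO against Control), with a median log2 fold change of −0.07 for PlaB against DMSO beside −0.05 over all miRNAs tested. Of the 4 with enough conversions, all 4 were called higher in rate in DMSO than in Control, and 2 lower in PlaB than in DMSO, beside 81.1% and 35.7% of all 238 miRNAs tested. The 2 were miR-16-5p, whose processing p53 is known to aid (log2 fold change −1.39, edgeR adjusted p = 4.06e-08), and miR-200c-3p, an epithelial miRNA (−3.13, edgeR adjusted p = 0.0328). miR-34a-5p had −1.67 (edgeR adjusted p = 0.357). The median of the 4 was −1.53 beside −1.23 over all.

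Of 12 other miRNAs abundant in liver, none was called for reads in any comparison by edgeR or DESeq2 (1 edgeR p under 0.05 before adjustment, for DMSO against Control), and 10 were called lower in rate in PlaB than in DMSO, where 35.7% of all 238 miRNAs tested were. The share depends on the number of conversions, since 52 of the 88 whose conversions passed filterByExpr were called lower. The median log2 fold change of the 12 was −1.16 beside −1.23 over all. The 10 called lower ranged from let-7a-5p (log2 fold change −2.84, edgeR adjusted p = 0.00390) and miR-101-3p (−2.06, edgeR adjusted p = 1.24e-06) to miR-21-5p (−0.32, edgeR adjusted p = 0.0453). miR-26a-5p and miR-378a-3p did not pass, and miR-26a-5p was the 1 of the 12 called lower in DMSO than in Control. Of the 6 miRNAs nearest in DMSO read count to hsa-miR-192-5p, 4 were called lower in rate in PlaB than in DMSO, and of the 6 nearest to hsa-miR-194-5p, 3 were. Beside them stand the 35.7% over all and the 52 of 88 that passed filterByExpr. The sets of 6 have 3 miRNAs in common.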

How the data were processed

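SLAMseq small RNA libraries of Huh7 cells were analysed, 4 each of Control, DMSO and PlaB, grouped by their labels. Per the labels and the study's methods, the authors ran Trim Galore, aligned to GRCh38 and used SLAM-DUNK to count over mature miRNA coordinates. The authors deposited counts of T>C conversions, covered T positions, reads, converted reads and multi-mapping reads. Their CPM and their T>C conversion rate, deposited as a fraction, equalled the values recomputed from the counts to rounding, and rates are printed in percent. A T count and a length column were also deposited by the authors.

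Reads were tested with edgeR 4.0.16 in R 4.3.3 (TMM factors, quasi-likelihood, 1 fit of 12 libraries, 537 miRNAs passing filterByExpr). T>C conversions were tested likewise with an offset, the log of the T positions covered, over 238 miRNAs with at least 10 conversions in all. The SE is the log2 fold change over the square root of F, and adjustment was by Benjamini-Hochberg with a threshold of 0.05. Tests were checked on simulated data. The simulated libraries were drawn independently, with most rates equal in DMSO and PlaB, which differs from the data here. DESeq2 1.42.0 was an alternative. Ratios and exact permutations used Python 3.11.15, scipy 1.17.1, numpy 2.4.6 and pandas 2.3.3, and figures matplotlib 3.10.9. Intervals are exact 95% (Clopper-Pearson), and limits of 0 counts take 3 conversions.

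The methods describe independent experiments, so a replicate number marks 1 experiment. Over the 158 miRNAs above 100 CPM, deviations of log2 CPM from condition means correlated between same-numbered libraries. The median r lay between 0.557 and 0.571 and the lowest r was 0.208. Between libraries of different numbers the median r lay between −0.225 and −0.171. The main fits had no block for the experiment, and blocked values are printed where they change a call.

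The miRNAs and lists were chosen with earlier results of these data known. Named miRNAs are the 3 members, their other arms, miR-122-5p, the 3 most alike by read count and by rate, and list members that passed a test. Exceptions chosen after their values were seen are the 6 miRNAs with split multi-mapping shares, and miR-34a-5p, miR-26a-5p and miR-378a-3p where they did not pass.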

Additional observations from a re-analysis of the deposited data

Results flagged for a closer look

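In 3 places 1 library lay far from the other 3 of its condition by Dixon's test, which flags about 1 in 20 groups by chance. It was run on read count, rate and multi-mapping share in each condition. The miRNAs screened were the 3 members, hsa-miR-192-3p and hsa-miR-194-3p, so a few flags can arise by chance. The T>C conversion rate of hsa-miR-192-5p in Control replicate 2 was 0.0149%, below the other 3 Control libraries. The share of multi-mapping reads of hsa-miR-194-5p in PlaB replicate 2 was 50.4%, below the other 3 PlaB libraries. The read count of hsa-miR-215-5p in DMSO replicate 4 was 63.5 CPM, below the other 3 DMSO libraries.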

How the results depend on the processing

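Over 45 results and 673 alternative values, 641 kept their call or stayed within the spread, and none reversed. These totals include the pair tests, 15 of reads and 4 of rates. Most alternatives of the pair tests could not reach the threshold, so they kept the lack of a call by design. The PlaB/DMSO ratio of hsa-miR-194-5p moved by more than its replicate spread without the Control subtraction (0.332), without DMSO replicates 1 and 2 (0.290) and without the 4 libraries with few multi-mapping reads (0.307, an alternative chosen after seeing the data, as was the mapping as a term). With each replicate left out it lay between 0.232 and 0.253, and that of hsa-miR-192-5p between 0.145 and 0.236. With the replicate block, hsa-miR-215-5p reads passed for DMSO against Control (log2 fold change 0.55), the calls of hsa-miR-192-3p reads (PlaB against Control) and hsa-miR-194-3p conversions (PlaB against DMSO) were lost, and no other call of the 3 members or their arms changed. The latter calls were each lost in 13 alternatives and the one of hsa-miR-194-3p reads in 1, and hsa-miR-192-3p reads passed for DMSO against Control without DMSO replicate 1. The cause was not tested.

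Counts over all miRNAs moved more. For reads, the 32 calls of DMSO against Control were between 15 and 21 without Control replicate 1 or DMSO replicates 2, 3 or 4, 60 with the block, 17 without DMSO replicates 1 and 2, 12 without the 4 libraries and 6 over the Initial miRNA Dataset of 143 miRNAs. The 36 calls of PlaB against Control were 5 in that dataset, and the 2 of PlaB against DMSO lay between 0 and 6. For conversions, calls moved by over 1.5 times only where fewer miRNAs were tested or several libraries left out. There the 193 higher and 1 lower of DMSO against Control became between 86 and 126 (3 alternatives), the 86 of PlaB against DMSO between 49 and 56 (3 alternatives) and the 127 of PlaB against Control 74 or 78 (2 alternatives). For edgeR, unadjusted p was under 0.05 for 30 miRNAs in reads of PlaB against DMSO. Sign flips of 4 pairs cannot give a p under 0.125, nor 3 against 3 libraries one under 0.10, so those alternatives say nothing of the pair tests. Depth limits the 3p arms and hsa-miR-215-5p most.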
